A study of Mus musculus with 30 samples.

Results

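The genes described here are 10 imprinted regulators of growth in mouse liver: H19, Igf2, Igf2r, Dlk1, Meg3, Plagl1, Cdkn1c, Peg3, Grb10 and Mest. They were found by their symbols in the deposited gene tables, where they make up 10 of 14259 genes at postnatal day (PND) 1 and PND21 and 8 of 13091 genes at PND42. H19 and Dlk1 were not analysed at PND42. The study measured RNA from whole livers of outbred CD-1 mice, either exposed during gestation to cadmium chloride (CdCl2, 500 ppb) or unexposed. There were 4 control and 4 exposed females at PND1, 3 and 3 females at PND21, and 4 and 4 mice of each sex at PND42, in 30 libraries of 22027514 to 40088312 reads. The labels do not say whether animals of a group shared a litter, so the p-values measure the spread between these animals only.

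An imprinted gene is transcribed mainly from the copy inherited from 1 parent, because the copies carry different methylation marks laid down in the germ line. Igf2, Dlk1, Plagl1, Peg3 and Mest are expressed from the paternal copy, and H19, Igf2r, Meg3, Cdkn1c and Grb10 mainly from the maternal copy in most tissues. Many of these genes are abundant in fetal liver and other fetal tissues and decline after birth as body growth slows. Total RNA does not tell the parental copies apart, so every value below is the sum of both.

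The members lie on 6 chromosomes of build mm10 (annotation GENCODE vM21), and 4 of them are on chromosome 7. The long noncoding RNA gene H19 (chr7:142575529-142578143) is 72.6 kb from Igf2 (chr7:142650766-142666816), and both are on the minus strand. Cdkn1c (chr7:143458339-143461050) lies 880.2 kb from H19, and Peg3 (chr7:6703892-6730431) is near the other end of the chromosome. Dlk1 (chr12:109452823-109463336) and the noncoding RNA gene Meg3 (chr12:109541001-109571726) are 77.7 kb apart on the plus strand of chromosome 12. Igf2r (chr17:12682406-12769664), Grb10 (chr11:11930508-12038683), Plagl1 (chr10:13060504-13131694) and Mest (chr6:30723547-30748465) are each alone on their chromosome among the members. Genes on the opposite strand overlap several of them, including Igf2os at Igf2, Airn at Igf2r and Copg2 at Mest. No source used here says whether reads were counted by strand, so reads of such overlapping pairs may be shared.

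RefSeq windows of build GRCm38.p6 were found for 8 of the 10 genes, at 15 start sites. The 250 bases before the start are printed for the pair of matched genes that fell most between PND1 and PND21 (Igf2 and Dlk1) and the pair that fell least (Peg3 and Igf2r), 5′ to 3′ on the gene's strand. Capitals mark CG dinucleotides, the bases at which methylation can mark a parental copy. Of the 4 Igf2 start sites, the window with the most CG is shown.
Igf2: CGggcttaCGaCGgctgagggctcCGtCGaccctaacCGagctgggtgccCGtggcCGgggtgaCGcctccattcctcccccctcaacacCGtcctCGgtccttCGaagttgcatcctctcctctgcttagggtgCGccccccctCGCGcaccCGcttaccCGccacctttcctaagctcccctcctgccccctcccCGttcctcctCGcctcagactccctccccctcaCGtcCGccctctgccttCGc
Dlk1: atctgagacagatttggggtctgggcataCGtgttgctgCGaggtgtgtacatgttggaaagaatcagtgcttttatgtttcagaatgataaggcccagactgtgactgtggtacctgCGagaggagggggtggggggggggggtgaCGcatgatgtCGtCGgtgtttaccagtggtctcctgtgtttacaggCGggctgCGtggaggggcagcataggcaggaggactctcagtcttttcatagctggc
Peg3: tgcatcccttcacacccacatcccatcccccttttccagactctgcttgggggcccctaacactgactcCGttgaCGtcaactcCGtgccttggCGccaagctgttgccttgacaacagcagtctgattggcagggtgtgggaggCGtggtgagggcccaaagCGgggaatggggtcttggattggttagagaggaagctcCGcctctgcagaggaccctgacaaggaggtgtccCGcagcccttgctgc
Igf2r: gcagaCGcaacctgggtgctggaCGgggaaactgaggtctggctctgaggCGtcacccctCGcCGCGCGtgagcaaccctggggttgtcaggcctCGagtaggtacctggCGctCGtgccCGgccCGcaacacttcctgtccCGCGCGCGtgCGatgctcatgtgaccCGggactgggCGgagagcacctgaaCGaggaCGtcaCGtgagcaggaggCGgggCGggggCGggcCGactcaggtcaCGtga
These windows are chr7:142658805-142659054 for Igf2 and chr7:6730420-6730669 for Peg3, both on the minus strand, chr12:109452573-109452822 for Dlk1 on the plus strand and chr17:12769707-12769956 for Igf2r on the minus strand. The Igf2 window holds 22 CG and the Igf2r window 27, while the Dlk1 and Peg3 windows hold 8 each. The other 3 Igf2 windows hold 10, 6 and 1 CG, so the printed one does not stand for the gene. Over the 15 windows the count ran from 0 to 40 with a median of 10, against a median of 6 over all 32851 windows of that length. The palindrome GGGGCCCC, which reads the same on both strands, was in 1 member window, that of Peg3, and in 0.889% of all windows. GCCATNTT, searched on both strands, was in 0 member windows and in 3.91% of all windows.

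Some of these transcripts also carry microRNAs. RefSeq places 9 mature microRNAs with 9 different seeds inside 4 of the members. The microRNAs themselves were not measured in these libraries. Those of H19 and Igf2 are shown because their hosts were the most abundant members at birth, with the seed (bases 2 to 8) in capitals.
miR-675-5p: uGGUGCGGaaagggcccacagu
miR-675-3p: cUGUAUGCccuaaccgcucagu
miR-483-5p: aAGACGGGagaagagaagggag
miR-483-3p: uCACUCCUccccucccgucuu
The miR-675 pair lies within an exon of H19 (chr7:142577112-142577133 for the 5p arm), and the miR-483 pair in an intron of Igf2 (chr7:142654968-142654989 for the 5p arm).

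At birth the members differed widely in abundance. H19 took 1.42% ± 0.27 of all reads (SD, n = 4) in PND1 control livers, and Igf2, the fetal growth factor gene it neighbours, took 0.639% ± 0.127. Levels were compared between genes only as normalised counts (reads divided by the library's size factor) per kb of exon. Per kb, H19 stood at 132633 ± 26708 and Igf2 at 25829 ± 5896 normalised counts in PND1 controls, and their ranges overlapped neither each other nor any other member. Next came the zinc finger gene Peg3 with 2215 ± 868 and Grb10, an adaptor that dampens insulin and IGF receptor signalling, with 2122 ± 473 per kb, and these did not differ beyond their spread. Cdkn1c, a cell cycle inhibitor, stood at 1209 ± 236 per kb and Mest, an alpha/beta hydrolase gene, at 734 ± 161, without overlap. Meg3 (464 ± 377 per kb), Dlk1 (247 ± 81.3), Igf2r (139 ± 36.8) and Plagl1 (133 ± 48.1) were the lowest, each overlapping its neighbour in that order.

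By PND21 the order of levels had changed in control livers. H19 was still the highest at 681 ± 111 normalised counts per kb (SD, n = 3), followed by Peg3 at 407 ± 115. Cdkn1c (141 ± 59.9), Grb10 (102 ± 12.9), Igf2 (85.5 ± 13.1), Igf2r (79.9 ± 13.8), Meg3 (58.6 ± 33.3), Mest (51.4 ± 16.1) and Plagl1 (20.9 ± 5.55 per kb) followed. Dlk1 was last at 0.886 ± 0.544 per kb. At PND42, which the authors scaled separately, Peg3 was the highest of 8 members in control females (175 ± 74.9 per kb) with no overlap with the next, Igf2r. In control males Igf2r (91.2 ± 13.8) and Peg3 (74.0 ± 14.2) had the highest means and overlapped. Igf2 had the lowest mean of the 8 in both sexes, at 3.92 ± 2.62 per kb in females and 4.15 ± 3.04 in males, and overlapped Plagl1 in each.

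**Figure D1:**
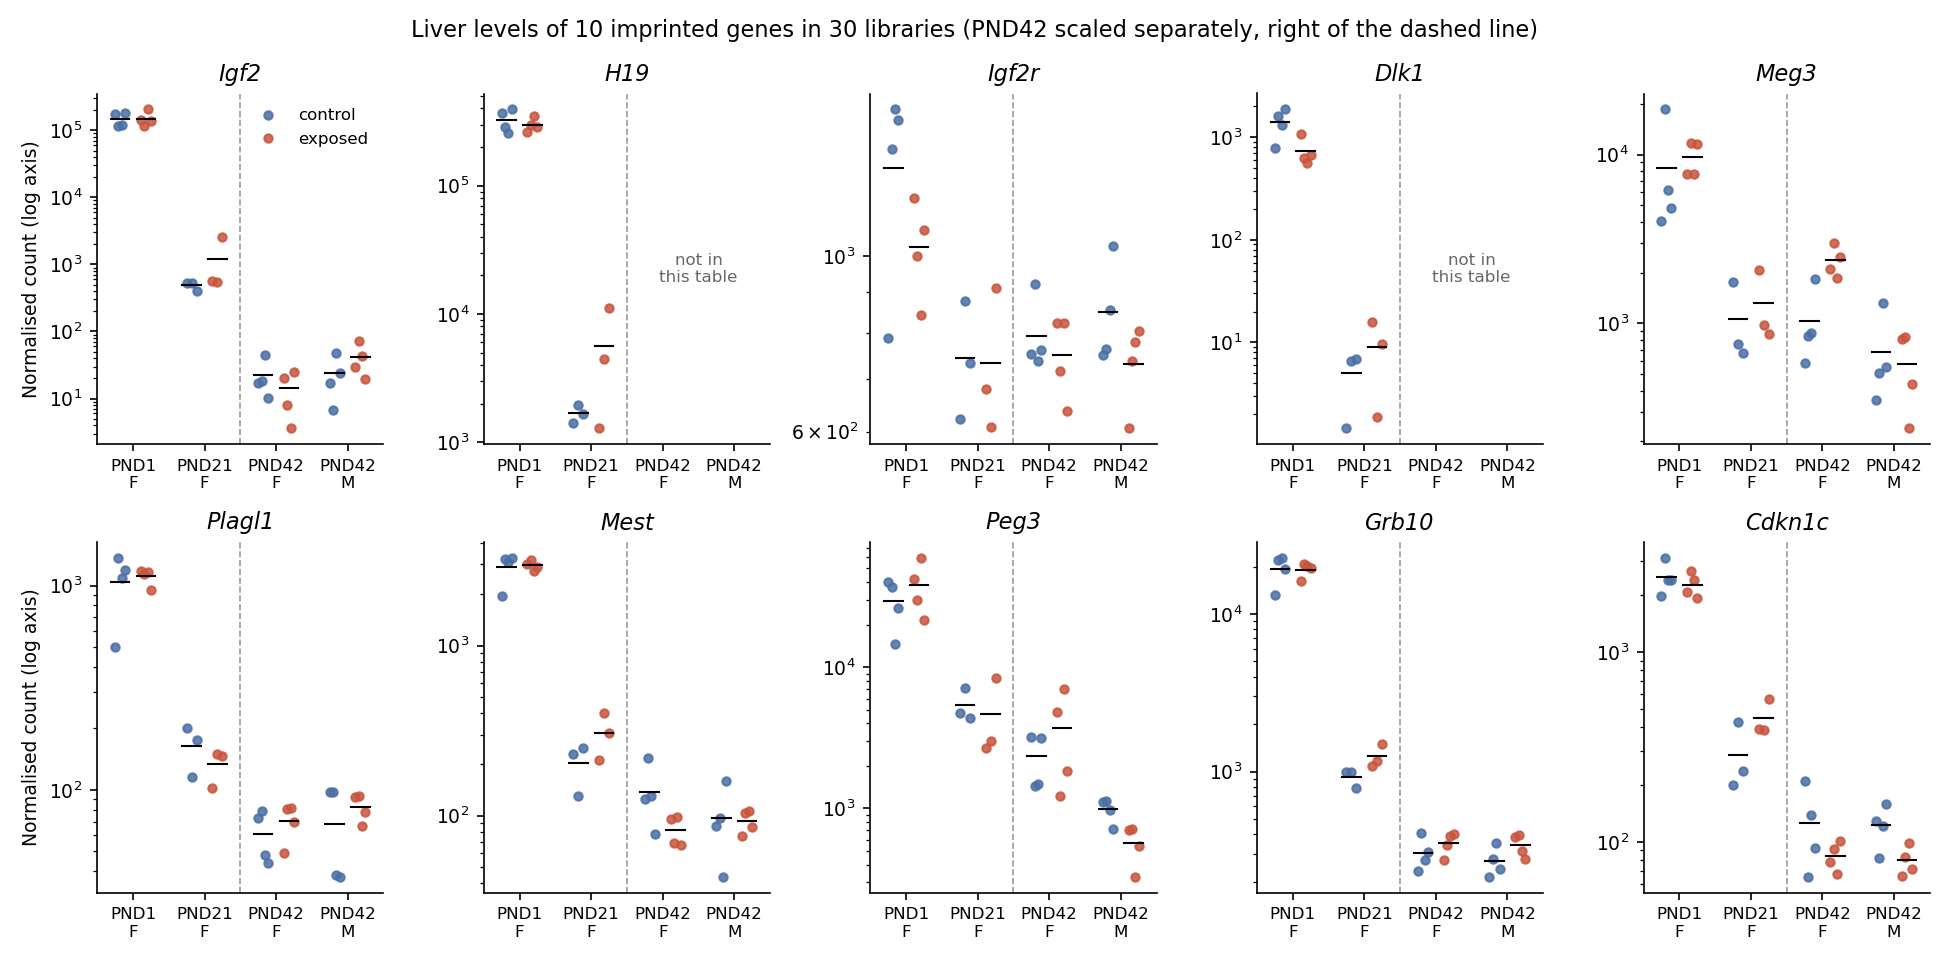
Normalised counts of each gene (log axis, a different range in each panel) in every library, by age and sex (F, female; M, male), with controls in blue, exposed animals in red and black bars at the group means. Control means of Igf2, H19 and Dlk1 drop by more than 2 decades between PND1 and PND21, while Igf2r stays between 606 and 1530 in all 30 libraries.

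The comparison of unexposed females at PND21 and PND1 asks how the genes changed over the first weeks after birth. All 10 members were lower at PND21 and passed the test (limma on log2 values, Benjamini-Hochberg adjusted p under 0.05 over 14233 genes), where 26.9% of all genes tested passed in that direction and 52.9% in either. The groups did not overlap for 9 of the 10, all but Igf2r, and 27.9% of all genes were lower without overlap. The log2 fold change was under -3 for 6 members and under -2 for 9, where 4.89% and 9.28% of all genes were. The median log2 fold change of the members was -3.50, beside 0.01 over all genes. Both parental classes fell: the 5 paternally expressed members had a median of -3.85 and the 5 maternally expressed members one of -3.16. Dlk1 was counted only through its PND1 level, and the members were chosen with earlier results of these data known. The shares above therefore describe these genes and are no independent test of them as a set.

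The growth factor gene Igf2 had 174417, 115797, 121655 and 179407 normalised counts in the PND1 controls and 535, 530.3 and 403 in the PND21 controls. Every PND1 library was thus more than 2 decades above every PND21 library. Its log2 fold change was -8.22 ± 0.22 (SE, limma adjusted p = 1.27e-08), the 5th most negative of the 14233 genes. H19, whose RNA is made from the maternal copy of the same domain, went from 369927, 285878, 256067 and 393238 to 1405, 1951 and 1673. The PND21 controls were again tightly grouped, far below every PND1 control. Its log2 fold change of -7.59 ± 0.23 (limma adjusted p = 1.73e-08) ranked 14th. Dlk1, a membrane protein related to Notch ligands and found on fetal hepatoblasts, had 789.6, 1613, 1325 and 1860 at PND1 and 1.46, 6.65 and 6.93 at PND21. The PND21 levels rest on 1 to 5 reads a library, and the gene was tested only because its PND1 levels passed the filter on low values. Its log2 fold change was -7.97 ± 0.45 (limma adjusted p = 7.11e-07), which the 1 count added before the logarithm makes an underestimate.

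Grb10 fell from 19286 ± 4300 to 924 ± 118 normalised counts, a log2 fold change of -4.36 ± 0.21. Mest fell from 2896 ± 635 to 203 ± 63.7 (-3.85 ± 0.26). The cell cycle inhibitor gene Cdkn1c fell from 2466 ± 482 to 287 ± 122 (-3.16 ± 0.26). The adjusted p-values of these 3 genes in limma ran from 2.16e-07 to 6.65e-06, and no PND1 library reached down to a PND21 library. Plagl1, a zinc finger transcription factor known to act on other imprinted genes, fell from 1037 ± 376 to 164 ± 43.4 (log2 fold change -2.60 ± 0.34, limma adjusted p = 0.000181). Peg3 fell from 29510 ± 11560 to 5418 ± 1538 (log2 fold change -2.38 ± 0.34, limma adjusted p = 0.000285).

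Meg3 had the widest spread of the members at birth relative to its mean, with 4023, 18530, 6199 and 4811 normalised counts in PND1 controls, and 1754, 760.3 and 669 at PND21. Replicate 2 alone stood far above the other PND1 controls. The log2 fold change was -2.83 ± 0.56 (limma adjusted p = 0.00330). Igf2r, the receptor that takes up IGF2 for breakdown in lysosomes, changed least: 788, 1364, 1530 and 1482 at PND1 against 621, 877 and 731 at PND21. The lowest PND1 library lay inside the PND21 range. Its log2 fold change of -0.76 ± 0.24 passed (limma adjusted p = 0.0207), but not after leaving out PND1 control replicate 3 or 4 or PND21 control replicate 1 or 3, with limma adjusted p-values of 0.0504 to 0.0778.

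**Figure D2:**
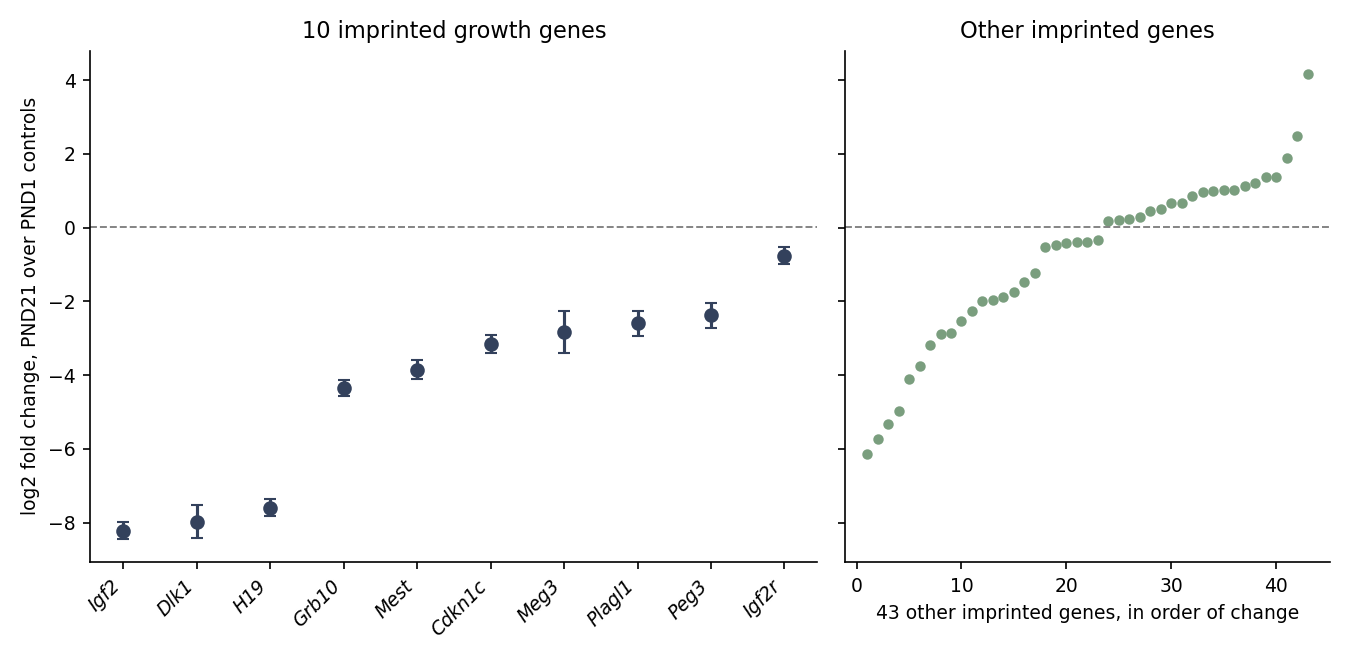
Log2 fold change of PND21 over PND1 control females for the 10 genes (left, points with SE bars) and for 43 other imprinted genes in order of change (right); the dashed line is the median of all genes. The 10 genes run from -8.22 to -0.76, while the other imprinted genes lie on both sides of the line.

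Other cell types changed between the same groups. All 15 measured erythroid markers of a list of 16 (hemoglobins and other red cell genes) fell and passed. Their summed level was 241252 to 397430 normalised counts at PND1 and 29193 to 87501 at PND21 in controls. All 10 hepatocyte markers had higher means, and 8 passed. Of all genes 26.9% passed as lower and 52.9% in either direction. Of 8 Kupffer cell and macrophage markers 7 had lower means and 5 passed as lower. All 6 measured mesothelium markers had lower means and 1 passed, and 2 of 6 cholangiocyte markers passed as lower. Of 12 endothelial markers 4 passed as higher and 4 as lower. All 22 cell cycle genes also fell, from sums of 26211 to 50546 to sums of 2640 to 5777. In whole liver, fewer cells of a type and less RNA per cell cannot be told apart. The mean log2 level of the erythroid markers did not overlap between the ages. With it as a covariate, 0 of the 10 members passed in limma and 2 of all genes did. The errors of the members' log2 fold changes were then 1.65 to 3.91, and that of Igf2r was -1.24 ± 2.04. The summed level of 14 stellate cell and matrix markers ran from 10803 to 32889 at PND1 and from 18612 to 23934 at PND21. Their mean log2 level ran from 8.47 to 10.35 and from 9.07 to 9.65. With this mean as a covariate, chosen after seeing the data, all 10 members passed.

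Ratios between linked or opposing members were also compared across the ages, and after adjustment none passed. Per kb there were 5.17 ± 0.39 (SD, n = 4) H19 reads for each Igf2 read in PND1 controls and 8.11 ± 1.82 (n = 3) at PND21, and the ranges did not overlap (two-sided exact permutation p = 0.0286, the smallest possible, adjusted 0.105 over 11 tests of ratios). Igf2 over Igf2r went from 206 ± 107 at PND1 to 1.09 ± 0.27 at PND21, with no overlap and the same exact permutation p. At PND42 that ratio was 0.0472 ± 0.0343 in control females and 0.0448 ± 0.0323 in control males. Meg3 over Dlk1, 1.86 ± 1.20 per kb at PND1, was 375.9, 35.8 and 30.2 in PND21 control replicates 1 to 3, again with no overlap and the same exact permutation p. Replicate 1 has 1 Dlk1 read and sets the mean of 147.3 ± 198.0, which is 33.0 without it.

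Other imprinted genes did not share a direction. Of 43 tested from a list of 65, 23 had lower means and 20 higher, with a median log2 fold change of -0.39. Of the 43, 20 passed as lower and 14 as higher, where 52.9% of all genes passed in either direction. The 4 of lowest p all fell: Zim1 (-6.13 ± 0.23) and Usp29 (-5.74 ± 0.40), both of the Peg3 domain on chromosome 7, Tspan32 (-5.33 ± 0.30) and Ampd3 (-3.20 ± 0.21), with limma adjusted p of 3.81e-08 to 2.46e-06. Usp29 had 3.20 ± 1.51 normalised counts in PND21 controls and, like Dlk1, was tested only through its PND1 level. Slc22a3, a transporter gene next to Igf2r, rose from 16.3 ± 8.91 to 283 ± 59.5 normalised counts and was chosen after its value was seen (log2 fold change 4.17 ± 0.42, limma adjusted p = 2.51e-05). Rian and Mirg, noncoding RNAs downstream of Meg3, had log2 fold changes of -2.53 ± 0.51 and -2.88 ± 0.55 (limma adjusted p of 0.00182 to 0.00371), and were also chosen after their values were seen.

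In the IGF and insulin signalling list, 9 of 20 tested genes passed as lower and 7 as higher, with a median log2 fold change of -1.25. Between these ages 26.9% of all genes passed as lower and 52.9% in either direction, the shares beside each list here. Igf1, the liver's growth factor gene of later postnatal growth, rose from 3634 ± 162 to 65701 ± 7943 normalised counts (log2 fold change 4.17 ± 0.17, limma adjusted p = 5.46e-08). Igfals, the subunit that holds IGF1 in circulating complexes, rose with a log2 fold change of 3.05 ± 0.26. The RNA-binding proteins of the fetal program were lower: Lin28b fell from 123 ± 36.9 to 3.23 ± 0.664, and Igf2bp1, which binds Igf2 mRNA, from 237 ± 35.6 to 0.886 ± 1.53 normalised counts. Both were below the filter's 10 normalised counts in PND21 controls and were tested only through their PND1 levels. Of 20 genes known to keep imprints or to act on H19 and Igf2, 8 passed as lower and 4 as higher, in total near the share of all genes. The maintenance methylation genes Dnmt1 and Uhrf1 had log2 fold changes of -1.81 ± 0.24 and -4.01 ± 0.50. Zhx2, a known repressor of Afp and H19 in postnatal liver, rose from 115 ± 32.2 to 527 ± 152.1 (log2 fold change 2.19 ± 0.27, limma adjusted p = 8.32e-05). All 11 fetal liver genes had lower means and 10 passed, with Afp, the fetal serum protein gene, going from 253211 ± 81373 to 681 ± 122 (log2 fold change -8.49 ± 0.27).

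The genes whose log2 values ran most alike over the 14 PND1 and PND21 libraries were Tgif2 for Igf2 (Pearson r = 0.996), Bex3 for H19 (0.996), AI467606 for Dlk1 (0.989), Arid3a for Grb10 (0.993), Zc3hav1l for Cdkn1c (0.992), Chil1 for Mest (0.990), Mirg for Meg3 (0.990), Miox for Plagl1 (0.976), Ceacam10 for Peg3 (0.964) and Rnf41 for Igf2r (0.943). These coefficients share the step between the ages: for Igf2, 1681 of 14258 genes had r above 0.9. Once group means were removed, Mirg was still the gene most alike to Meg3 over 30 libraries (r = 0.856). Among the members, deviations from group means over 14 libraries had an r of 0.85 between Plagl1 and Mest (0.94 and 0.93 within the 8 PND1 and 6 PND21 libraries) and of 0.78 between H19 and Igf2 (0.84 and 0.79). No other pair of members had a higher r over the 14 libraries than these. For both Plagl1 (498 normalised counts) and Mest (1950), PND1 control replicate 1 was the lowest PND1 library, and r without it was not computed. Over the 16 PND42 libraries the value for Plagl1 and Mest was 0.19. These describe libraries that share scaling and depth.

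At PND1 the comparison of exposed with control females asks whether the genes were altered at birth. None of the 10 members passed, and 0% of 14059 genes did in limma, with 2039 genes at an unadjusted p under 0.05. No member's groups were apart, where 4.82% of genes were lower and 2.94% higher without overlap. Dlk1 had the lowest p of the members. Its exposed livers had 1068, 621, 555 and 675 normalised counts against 789.6, 1613, 1325 and 1860 in controls. The lowest control and the highest exposed library crossed, and the others were separate. The log2 difference was -0.91 ± 0.28 (limma adjusted p = 0.261), the 1 member with an unadjusted p under 0.05. The authors' deposited table gives Dlk1 a log2 fold change of -0.94 with an adjusted p of 0.127. It gives an adjusted p to only 6790 genes at PND1, fewer than the 14059 tested in limma, and 1.06% of them passed. Leaving out any 1 library kept the difference between -0.75 and -1.17 with no call.

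The growth factor gene Igf2 and its noncoding neighbour overlapped between the PND1 groups. Igf2 in exposed livers was 140221, 117488, 204843 and 136969 (log2 difference 0.02 ± 0.23). H19 in exposed livers was 260120, 296283, 350716 and 285918 (log2 difference -0.12 ± 0.20). Meg3 differed by 0.46 ± 0.44, Peg3 by 0.38 ± 0.37 and Igf2r by -0.30 ± 0.21, and the other 4 members, Plagl1, Mest, Cdkn1c and Grb10, by 0.19 or less in size. Meg3 over Dlk1 per kb was 4.46 ± 1.63 in exposed and 1.86 ± 1.20 in control livers (two-sided exact permutation p = 0.0571, adjusted 0.157 over 11 tests of ratios). Of the 43 other imprinted genes 0 passed, with a median log2 difference of 0.08 beside -0.01 over all genes. In the fetal liver list Tff3 had the lowest p, with 368 ± 183 in exposed and 1659 ± 726 in control livers (log2 difference -2.17 ± 0.40, limma adjusted p = 0.244). All 15 erythroid markers had higher exposed means, and 0 passed.

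PND1 control replicate 1 stood apart in several members. It was the lowest control for Plagl1 (498, 1364, 1092 and 1193 in replicates 1 to 4), Mest (1950, 3245, 3113 and 3275), Igf2r, Dlk1, Grb10, Cdkn1c and Meg3, and had 10803 summed counts of stellate cell and matrix markers, also the lowest of the controls. Without it the log2 differences of Plagl1, Mest and Grb10 were -0.13, -0.12 and -0.16 in place of 0.19, 0.06 and 0.01, and 0 members passed. With the mean log2 level of the stellate cell and matrix markers as a covariate, chosen after seeing the data, these differences were 0.21, 0.07 and 0.02.

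**Figure D3:**
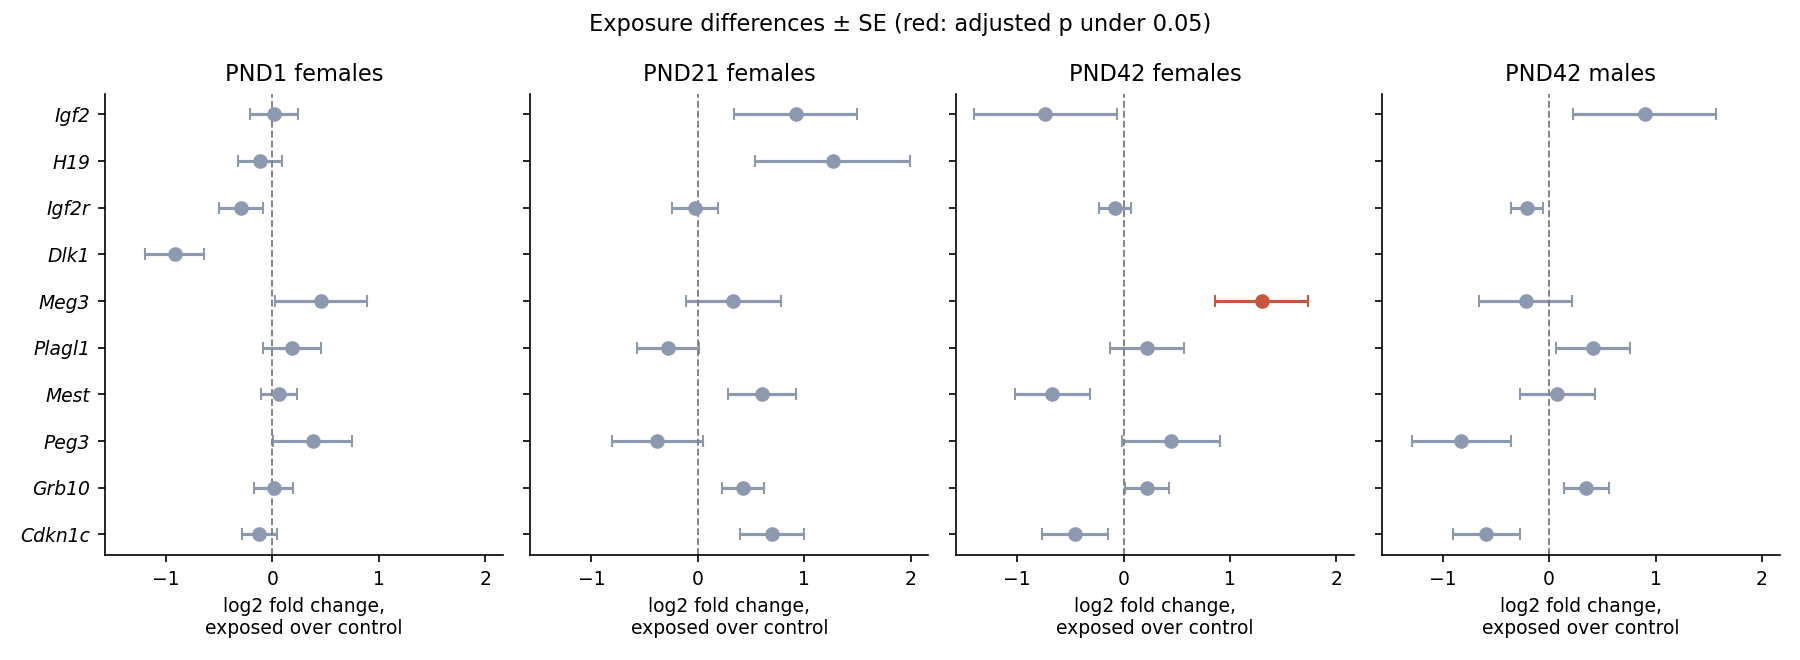
Log2 fold change of exposed over control animals (points, with SE bars) for each gene in the 4 exposure comparisons; red marks a limma adjusted p under 0.05. Meg3 in PND42 females, at 1.30, is the 1 red point. Genes without a point were not tested there.

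At PND21, 0 of 9 tested members passed, where 0.036% of 13886 genes did in limma and 1329 had an unadjusted p under 0.05. Dlk1, with 2 to 15 reads in exposed livers and 1 to 5 in controls, was below the filter. H19 had the largest difference of the members, with 1285, 4434 and 11235 normalised counts in exposed livers against 1405, 1951 and 1673 in controls. The exposed libraries ran from below every control to far above them. The log2 difference was 1.27 ± 0.73 (limma adjusted p = 0.587), 2.09 without exposed replicate 1 and 0.52 without exposed replicate 3. The authors' deposited table gives H19 a log2 fold change of 1.75 with an adjusted p of 0.0125, where 3.13% of 14235 genes passed.

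Igf2 was 562, 545 and 2525 in exposed livers and 535, 530.3 and 403 in controls. The groups did not overlap, but exposed replicates 1 and 2 lay just above the highest control. The log2 difference was 0.92 ± 0.58 (limma adjusted p = 0.610), and 0.19 without exposed replicate 3. The authors' deposited table gives Igf2 a log2 fold change of 1.31 with an adjusted p of 0.0744, which did not pass either. Grb10 was 1081, 1160 and 1495 against 993, 990.2 and 788, again without overlap (log2 difference 0.42 ± 0.19, limma adjusted p = 0.516). Thus 2 of 9 members were higher and 0 lower without overlap, where 7.99% of all genes were higher and 8.62% lower. Cdkn1c had 393, 387 and 561 against 198, 427 and 237, with the highest control above both lower exposed libraries (log2 difference 0.69 ± 0.30, limma adjusted p = 0.516). Mest, Meg3, Igf2r, Plagl1 and Peg3 differed by 0.60 ± 0.32, 0.33 ± 0.45, -0.03 ± 0.21, -0.28 ± 0.29 and -0.38 ± 0.43.

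Exposed replicate 3 was the highest PND21 library for H19, Igf2, Igf2r, Peg3, Grb10 and Cdkn1c. It also had the most stellate cell and matrix marker counts, 46731, against 29235 and 23121 in the other exposed livers and 18612 to 23934 in controls, and 11 of those 14 markers had a higher exposed mean with 0 passing. The mean log2 level of these markers did not overlap between the groups (9.07 to 9.65 in controls, 9.71 to 10.87 in exposed livers). As a covariate, chosen after seeing the data, it gave log2 differences of 0.37 ± 1.24 for H19, -0.49 ± 0.67 for Igf2 and -0.02 ± 0.40 for Cdkn1c. With so few libraries and no overlap, this fit cannot tell the marker level and exposure apart. Of the 22 cell cycle genes, 21 also had a higher exposed mean with 0 passing, in sums of 3287 to 9418 against 2640 to 5777, and their part in the result was not tested. Means of other cell type markers also differed with 0 passing: all 10 hepatocyte markers were lower in exposed livers (median log2 difference -0.56, sums of 1743690 to 2676610 against 2339870 to 4952150), while 7 of 8 Kupffer cell, 5 of 6 mesothelium and 4 of 5 cholangiocyte markers were higher. Their part was not tested either.

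In the IGF and insulin signalling list 0 of 18 genes passed at PND21. Igfals had 3152 ± 432 in exposed and 6553 ± 1682 in control livers (log2 difference -1.03 ± 0.25, limma adjusted p = 0.364), and Igf1 had 37509 ± 3194 against 65701 ± 7943 (log2 difference -0.81 ± 0.25, limma adjusted p = 0.426). Of 39 other imprinted genes 0 passed, among them Ndn (106 ± 45.4 against 39.2 ± 16.2, log2 difference 1.41 ± 0.43, limma adjusted p = 0.426). Of 9 fetal liver genes 0 passed. Whether the exposure difference itself changed from PND1 to PND21 was tested by an interaction term. None of 10 members passed, where 0.014% of genes did, and the term for Cdkn1c was 0.82 ± 0.34 (limma adjusted p = 0.493) and for H19 1.38 ± 0.70. Dlk1, counted among the 10 through its PND1 level, has too few reads at PND21 for its term to be read.

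At PND42, exposed females had more Meg3, a noncoding RNA of the Dlk1 domain that is enriched in the nucleus. It was the 1 of 8 members that passed, where 18.9% of 13091 genes passed in that direction, 21.4% in the other and 40.2% in either. Exposed livers had 2112, 3009, 1864 and 2461 normalised counts. Controls had 583, 846 and 882 in replicates 2 to 4 and 1830 in a library whose column carries no replicate number. The lowest exposed library was just above the highest control, and 22.3% of all genes were higher and 23.5% lower without overlap. The log2 difference was 1.30 ± 0.44 (limma adjusted p = 0.0273).

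The call was near the threshold of 0.05, and leaving out 1 library could lose it. It was lost after leaving out control replicate 2, 3 or 4 or exposed replicate 2 or 4, with log2 differences of 1.07 to 1.27 and limma adjusted p-values of 0.0532 to 0.0838. The unnumbered control, whose column name carries a tag that the labels give to a PND21 control, was the library nearest to the exposed group. Without it the difference was 1.62 (limma adjusted p = 0.00993).

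Several other measures separated the same groups. Reads on mitochondrial genes made up 22.2% to 35.5% in exposed females and 5.25% to 12.8% in controls, and the nuclear RNAs Malat1 and Neat1 together had 105107 to 126037 normalised counts against 23613 to 50022. All 10 hepatocyte markers had lower means in exposed females and 8 passed, where 21.4% of all genes passed as lower. Lower means were also found for 7 of 8 Kupffer cell, 10 of 14 stellate cell and matrix, 4 of 5 cholangiocyte and 4 of 4 mesothelium markers. Of these lists 2, 4, 2 and 0 markers passed as lower. Of 12 endothelial markers 3 passed as higher and 2 as lower. The part of these measures in the Meg3 difference was not tested. Mirg, transcribed from the same domain as Meg3, rose from 32.1 ± 11.4 to 119.9 ± 18.7 normalised counts (log2 difference 1.92 ± 0.61, limma adjusted p = 0.0176), and Rian had 443 ± 193 and 793 ± 275 (0.88 ± 0.46, limma adjusted p = 0.143). Airn, the antisense RNA within Igf2r, and Kcnq1ot1, an antisense RNA of the Cdkn1c domain, rose with log2 differences of 2.24 ± 0.50 and 1.88 ± 0.38 in limma; these 4 noncoding RNAs were chosen after their values were seen. Igf2r and Cdkn1c themselves did not pass, with log2 differences of -0.08 ± 0.15 and -0.46 ± 0.31.

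The other female members did not pass either. Mest had 95.1, 68.7, 98.6 and 67.0 in exposed females against 125, 219, 131 and 77.9 in controls (log2 difference -0.67 ± 0.35, limma adjusted p = 0.139). In a fit of only the 6 female libraries whose numbers both groups share, which leaves out the unnumbered control and exposed replicate 1 and was added after seeing the data, it was -0.99 ± 0.30 and passed (limma adjusted p = 0.0275). Peg3 ran from 1230 to 7040 in exposed and from 1449 to 3231 in control females (0.45 ± 0.46). Igf2 rested on 5 to 61 reads a library, with a log2 difference of -0.73 ± 0.67. Grb10 and Plagl1 differed by 0.22 ± 0.21 and 0.22 ± 0.35.

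**Figure D4:**
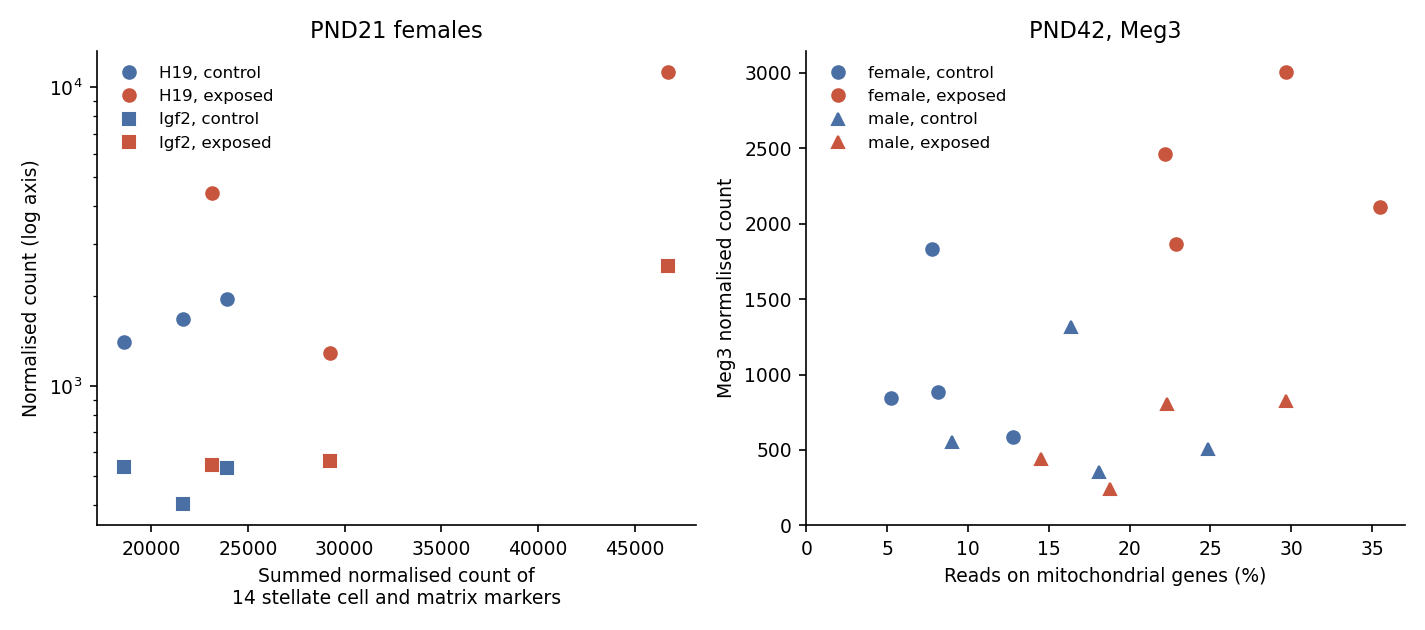
Left: H19 (circles) and Igf2 (squares) normalised counts on a log axis against the summed stellate cell and matrix markers in 6 PND21 livers, where the exposed library at 46731 is highest in both genes. Right: Meg3 normalised counts against the percentage of reads on mitochondrial genes in 16 PND42 livers. Exposed females (red circles) lie at 22.2% or more and have more Meg3 than every other library. Males (triangles) lie at 9.03% to 29.7% and have 239 to 1314 Meg3 counts.

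Among other imprinted genes in PND42 females, 10 of 34 passed as higher and 7 as lower, where 18.9% and 21.4% of all genes did. Their median log2 difference was 0.22 beside 0.00 over all genes. Those of lowest p were the adaptor gene Gab1 (0.97 ± 0.15), Pon2 (-1.26 ± 0.19), the potassium channel gene Kcnq1 (1.61 ± 0.27) and Trappc9 (1.41 ± 0.25), of which Pon2 fell and the others rose. In the IGF and insulin signalling list 4 of 17 genes passed as higher and 4 as lower, near the shares of all genes. The IGF binding protein genes Igfbp7, Igfbp4 and Igfbp3 fell, with log2 differences of -1.98 ± 0.22, -1.88 ± 0.25 and -2.01 ± 0.29, and the growth hormone receptor gene Ghr rose (0.96 ± 0.19), with limma adjusted p of 1.38e-05 to 0.00103. Of 19 genes for imprint upkeep or control of H19 and Igf2, 8 passed as higher and 2 as lower. Zbtb20 (1.52 ± 0.23) and Zhx2 (0.80 ± 0.24), both known repressors of Afp, were among the higher. Of 7 fetal liver genes 1 passed as higher and 3 as lower.

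In PND42 males 0 of 8 members passed, and 0% of 13091 genes did in limma, with 932 genes at an unadjusted p under 0.05. Peg3 had 703, 709, 328 and 546 normalised counts in exposed males against 1113, 1132, 979 and 721 in controls. These groups did not overlap, and 0.833% of all genes were lower and 0.894% higher without overlap. The log2 difference was -0.83 ± 0.46 (limma adjusted p = 0.622). Cdkn1c had 79.8 ± 14.1 against 123 ± 31.6 (log2 difference -0.59 ± 0.31), and Grb10 had 344 ± 56.9 against 272 ± 59.8 (0.35 ± 0.21). Meg3 was 578 ± 288 in exposed and 682 ± 430.2 in control males (log2 difference -0.22 ± 0.44). Igf2, with 7 to 63 reads a library, differed by 0.90 ± 0.67, and Plagl1, Mest and Igf2r by 0.41 ± 0.35, 0.07 ± 0.35 and -0.21 ± 0.15. None of 34 other imprinted genes passed.

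The exposure difference in males was set against that in females at PND42 by an interaction term. None of 8 members passed, where 7.91% of all genes did. The male minus female term for Meg3 was -1.52 ± 0.62 on the log2 scale (limma adjusted p = 0.141), so that its exposure difference was not shown to depend on sex. Peg3 followed at -1.27 ± 0.66 (limma adjusted p = 0.241) and Igf2 at 1.63 ± 0.95 (limma adjusted p = 0.297).

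Between the sexes in unexposed animals at PND42, 0 of 8 members passed, where 6.93% of genes did. Peg3 had 1113, 1132, 979 and 721 in males against 3231, 1449, 1492 and 3165 in females. All males lay below all females, as did 5.64% of all genes, while 6.75% lay above. The log2 difference was -1.16 ± 0.46 (limma adjusted p = 0.145). When libraries were scaled by total reads, which moved the median of all genes to -0.38, it was -1.53 and passed (limma adjusted p = 0.0416). Meg3 differed by -0.65 ± 0.44 and Mest by -0.56 ± 0.35, and the other 5 members by 0.17 or less in size. Among other imprinted genes 3 of 34 were higher in males and passed, among them Ube3a (0.98 ± 0.15) and Gnas (1.18 ± 0.23).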

How the data were processed

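Liver RNA (integrity number 7 or more) was sequenced as single-end reads of 125 bp, per the labels' protocols. The submitters' processing notes name FastQC, STAR, featureCounts and build mm10, with no versions. The deposited tables hold log2 values, which the authors made by dividing counts by a size factor and adding 1. This was read from the values, since 100% of them gave whole reads within 0.1. The deposited mean signal showed that PND1 and PND21 were scaled together over 14 libraries and PND42 apart over 16. The authors' deposited log2 fold changes and adjusted p-values are quoted where attributed, and the authors' test score, deposited beside them, was not used. PND1 and PND21 libraries were on lane 3 and PND42 libraries on lane 5.

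limma 3.58.1 (R 4.3.3, trend and robust variance) was fitted to all genes with at least 10 normalised counts in as many libraries as the smallest group, two-sided, with Benjamini-Hochberg adjustment at 0.05. The 4 PND42 groups shared a fit. Fold changes are on the log2(value + 1) scale, which understates low genes. Ratios were tested by exact permutation. Among PND42 controls 1 female and 3 male columns carry a group but no replicate number. On 4-fold changes simulated with the same small spread for every gene and without low genes, 98.5% to 100% were recovered. Members such as Meg3 (8391 ± 6819 normalised counts in PND1 controls) varied more, so this does not give the power for them. The tables start at means of 10.5 and 12.1 normalised counts, and depths of 22027514 to 40088312 reads limit genes near those means. Alternatives were other scalings, no filter, limma voom, plain variances, each library left out, a replicate block, other groups in the fit, an erythroid covariate and, added after seeing the data, a stellate cell covariate and the libraries of the block without the block. Named genes were all members, up to 4 genes of lowest p per list, Afp and the gene most alike to each member, and exceptions are stated. The members and lists were chosen with earlier results of these data known. Sequences are from RefSeq (GRCm38.p6), turned to the gene's strand.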

Additional observations from a re-analysis of the deposited data

Results flagged for a closer look

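In 52 groups of 4 libraries, a library was set apart where its gap to the nearest other exceeded 0.829 of the group's range, which chance gives in about 1 in 20 groups. Igf2r in PND42 control females was highest in replicate 3, at 922 normalised counts against 762 in the next library. Mest in PND1 controls was lowest in replicate 1, at 1950 against 3113 in the next. Plagl1 in exposed PND1 females was lowest in replicate 4, at 952 against 1143 in the next.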

How the results depend on the processing

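Of 1158 values of members recomputed under other settings, 1089 kept their direction and side of the threshold, 46 changed direction, 20 lost and 3 gained a call. None of the values that changed direction was called in the reported fit, and the causes were not tested. With libraries scaled to their total reads, the all-gene median was 0.23 at PND21, -0.50 between the ages, -0.38 between the sexes and 0.18 in the age interaction. Under it all 10 members still fell with age (Igf2r -1.28) and 1 member, Peg3, passed between the sexes, while Igf2r became 0.21 at PND21, Plagl1, Igf2r and Cdkn1c became -0.31, -0.28 and -0.31 between the sexes, and Meg3 became 0.056 in the age interaction. A trimmed mean of M values gave Igf2r 0.00028 at PND21. The erythroid covariate left 0 members called between the ages and gave Cdkn1c 0.018 at PND1. The stellate cell covariate, which does not overlap between the PND21 groups, gave Igf2 -0.49, Plagl1 0.041 and Cdkn1c -0.020 at PND21.

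Leaving out 1 library at a time gave 0 to 1 called members in PND42 females. At PND1 the log2 differences then ran from -0.14 to 0.12 for Igf2, -0.13 to 0.35 for Plagl1, -0.12 to 0.13 for Mest and -0.16 to 0.10 for Grb10. At PND21 they ran from -0.20 to 0.10 for Igf2r and -0.058 to 0.77 for Meg3, and in PND42 males from -0.25 to 0.36 for Mest and -0.48 to 0.15 for Meg3. Between the sexes they ran from -0.44 to 0.44 for Igf2, -0.17 to 0.28 for Plagl1, -0.00361 to 0.17 for Igf2r and -0.22 to 0.34 for Cdkn1c. In the sex interaction they ran from -0.034 to 0.42 for Plagl1, -0.42 to 0.13 for Cdkn1c and -0.016 to 0.26 for Grb10, and in the age interaction from -0.60 to 0.31 for Meg3.

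Replicate numbers did not pair animals: same-number correlations of deviations ran from -0.08 to 0.23, and in no comparison did every library correlate best with its own number. A replicate block gave 2 called members in PND42 females (Meg3 1.66 and Mest -0.99), but that fit holds only the 6 female libraries with shared numbers, and the same 6 without the block also gave 2, with the same log2 differences. With the block 0 members passed at PND1 and PND21 and 10 between the ages, where its 6 libraries without the block gave 9 (Igf2r lost). No paired analysis was possible in males or between the sexes because fewer than 2 numbers are shared. Over all settings the count of all genes past the threshold ran from 0 to 5 at PND1, 0 to 14 at PND21 (5 in the reported fit), 0 to 27 in PND42 males, 371 to 2110 between the sexes (907), 492 to 1929 in the sex interaction (1036) and 0 to 12 in the age interaction (2). Between the ages it was 2 with the erythroid covariate and 7527 in the reported fit. Depth limits Dlk1 at PND21 and Igf2 at PND42, which rest on few reads.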
